A study of Mus musculus with 21 samples.

Results

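Genes that mark Langerhans cells and dendritic cells (DCs), the cells that carry antigen from the skin to the lymph node, were followed in the skin and the inguinal lymph nodes of *Ifnk* TG mice. They are *Flt3*, *Zbtb46*, *Batf3*, *Xcr1*, *Clec9a*, *Cd207*, *Itgax*, *Cd209a* and *Siglech*, 9 of the 55487 genes in each table. The 9 were chosen by symbol as known DC and Langerhans cell genes, with earlier results of these data known. The other gene lists below were also written with those results known. All 9 passed the filter on low counts in both tissues. Skin came from mice at 12 months of age that had no treatment. There were 3 libraries from WT mice, and 2 from nonlesional (NL) and 4 from lesional (L) skin of *Ifnk* TG mice. Lymph nodes came from WT and *Ifnk* TG mice that had no treatment (NoTx) or were given 250 mJ/cm2 of UVB on 3 days per week for 2 weeks and then observed for 2 weeks, as 3 libraries in each of 4 groups. The TG mice carry *Ifnk*, which encodes the type I interferon IFNκ, under the keratin 14 promoter, so the transgene is driven in basal keratinocytes. The line was made on another strain and backcrossed to BALB/c, the strain of the WT mice. Sex, body site, the mouse of origin and the age of the node mice are not in the sample labels, so p-values measure only the spread between these libraries, and NL and L skin of the same mouse could not be matched.

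Skin libraries held 40499078 to 56511276 counts and node libraries 27599809 to 36428435. *Ifnk* was read at 14, 11, 5 and 8 counts in L skin, at 6 and 0 counts in NL skin and at 0 counts in the 3 WT skin and all 12 node libraries, so 1 library labelled NL TG did not show the transgene at this depth, where a count of 0 allows up to 3. The skin groups also differed in tissue makeup. The summed level of 15 skeletal muscle genes was 42886 to 58547 CPM (counts scaled to a common library size) in WT, 37772 to 45333 CPM in NL and 36.2 to 11336 CPM in L skin, and that of 6 hair shaft keratins was at most 1.15 CPM in WT and NL skin and 1283 to 4742 CPM in L skin. Body site, sampled tissue depth and lesion cannot be told apart in these libraries. In bulk tissue, fewer cells of a type and less RNA per cell cannot be told apart either.

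DCs arise from bone marrow precursors that need the receptor tyrosine kinase *Flt3*, and conventional DCs (cDCs) express the repressor *Zbtb46*. Type 1 cDCs (cDC1) depend on the AP-1 family factor *Batf3*, carry the chemokine receptor *Xcr1* and the dead-cell receptor *Clec9a*, and present captured antigen to CD8 T cells. Langerhans cells live in the epidermis, kept there by keratinocyte *Il34* and by TGF-β, and carry langerin (*Cd207*), which some dermal cDC1 share. *Itgax* encodes CD11c, an integrin chain of many DCs and some macrophages, *Cd209a* is a lectin of type 2 cDCs (cDC2) and monocyte-derived cells, and *Siglech* is a lectin of plasmacytoid DCs (pDCs), the DCs known for making type I interferon.

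On GRCm38 the genes lie at chr5:147330741-147400489 (*Flt3*), chr2:181387762-181459426 (*Zbtb46*), chr1:191097847-191108945 (*Batf3*), chr9:123852315-123862029 (*Xcr1*), chr6:129408862-129424763 (*Clec9a*), chr6:83671215-83677857 (*Cd207*), chr7:128129547-128150657 (*Itgax*), chr8:3743397-3748984 (*Cd209a*) and chr7:55768178-55778925 (*Siglech*). Sequence upstream of the start was taken from RefSeq (GRCm38.p6), which held all 9. It is shown for the genes that passed a test in skin, and for *Cd207* and *Itgax*, which hold a match to the AP-1 motif bound by *Batf3* and its JUN partners. Each line gives the 130 bases that end 1 base before the start, 5′ to 3′ on the strand of the gene, with motif matches in capitals.
Xcr1, chr9:123862030-123862159, minus strand: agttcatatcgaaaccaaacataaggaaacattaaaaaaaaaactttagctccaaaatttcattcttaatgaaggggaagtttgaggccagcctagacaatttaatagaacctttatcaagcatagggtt
Flt3, chr5:147400490-147400619, minus strand: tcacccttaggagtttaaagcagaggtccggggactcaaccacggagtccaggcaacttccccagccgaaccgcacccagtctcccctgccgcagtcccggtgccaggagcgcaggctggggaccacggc
Cd209a, chr8:3748985-3749114, minus strand: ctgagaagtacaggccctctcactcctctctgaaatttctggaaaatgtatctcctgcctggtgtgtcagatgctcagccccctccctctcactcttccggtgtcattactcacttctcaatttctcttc
Siglech, chr7:55768054-55768183, plus strand: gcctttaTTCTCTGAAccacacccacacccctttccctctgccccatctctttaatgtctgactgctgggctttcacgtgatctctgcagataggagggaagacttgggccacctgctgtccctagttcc
Cd207, chr6:83677858-83677987, minus strand: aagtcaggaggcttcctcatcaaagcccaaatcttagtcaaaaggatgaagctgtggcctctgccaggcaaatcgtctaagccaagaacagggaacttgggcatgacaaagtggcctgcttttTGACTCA
Itgax, chr7:128129420-128129549, plus strand: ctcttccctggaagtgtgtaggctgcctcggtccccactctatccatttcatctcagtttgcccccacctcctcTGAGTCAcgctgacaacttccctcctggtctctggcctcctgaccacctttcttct
The RefSeq start of *Zbtb46* lies 35.0 kb inside the gene as GENCODE M21 draws it, so its sequence is not shown. The AP-1 motif TGANTCA was found within 250 bases before the start of *Cd207*, *Itgax* and *Zbtb46* (its inner start), beginning 7, 56 and 61 bases before it, and in 6.75% of the 32851 promoters searched over the same length on both strands. The STAT motif TTCNNNGAA was found in *Siglech* and *Batf3*, 123 and 239 bases before the start, and in 7.02% of promoters. No member held the interferon-stimulated response element or the PU.1 motif AGAGGAA, which were in 2.98% and 8.55% of promoters. A match is a string of letters and not a site shown to be bound.

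Levels per kb of exon put the genes in a different order in each tissue. Over all skin libraries *Cd207* had the highest mean, at 20.6 ± 6.15 CPM per kb (SD, n = 9), followed by *Cd209a* at 11.6 ± 8.11 CPM per kb. *Itgax*, at 1.79 ± 0.633 CPM per kb, and *Siglech*, at 1.32 ± 0.988 CPM per kb, came next. From *Itgax* down, no neighbours in the order differed beyond their SD, and the lowest was *Flt3* at 0.309 ± 0.142 CPM per kb. These means pool groups in which the order was not the same. In WT skin *Cd207* (19.9 ± 1.98 CPM per kb, SD, n = 3) and *Cd209a* (18.9 ± 10.3) did not differ beyond their SD, while in L skin they were at 20.3 ± 9.03 and 5.60 ± 0.980 CPM per kb (SD, n = 4). *Siglech* had a higher mean than *Itgax* in WT skin (2.24 ± 1.20 against 1.36 ± 0.133 CPM per kb) and a lower one in L skin (0.629 ± 0.346 against 2.21 ± 0.783). In nodes *Siglech* was the highest, at 21.4 ± 4.46 CPM per kb (SD, n = 12), ahead of *Cd209a* at 5.69 ± 1.04 CPM per kb. *Flt3* (2.57 ± 0.362) and *Itgax* (2.29 ± 0.491) followed and did not differ beyond their SD, nor did *Clec9a* (1.26 ± 0.268), *Xcr1* (1.07 ± 0.343) and *Cd207* (0.982 ± 0.282). *Zbtb46* and *Batf3* were the lowest in nodes, at 0.530 ± 0.205 and 0.507 ± 0.245 CPM per kb. The tissues were scaled separately and no test was made between them.

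**Figure D1:**
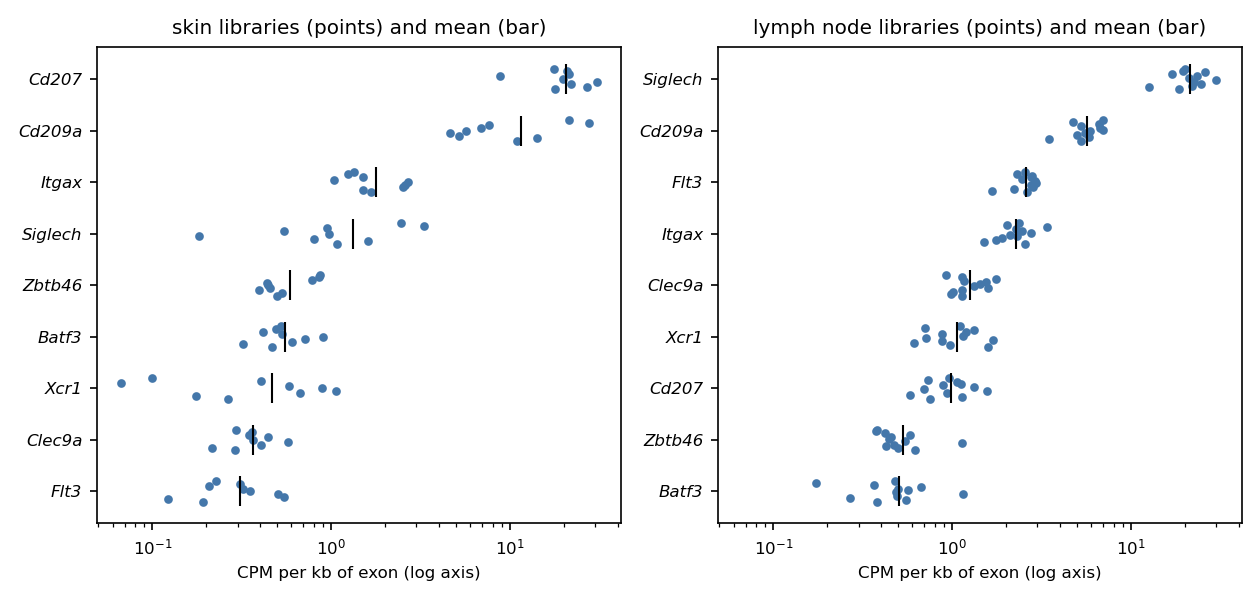
Level of each gene per kb of exon (CPM per kb, log axis) in the 9 skin and 12 node libraries, with points for libraries and bars for means. Over all libraries of a tissue *Cd207* has the highest mean in skin (20.6) and *Siglech* in nodes (21.4), but in WT skin alone *Cd207* (19.9) and *Cd209a* (18.9) are close.

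Lesional skin was compared with WT skin to ask which DC genes differed in the lesions. Of the 9 genes, 1 rose and 3 fell (edgeR's quasi-likelihood test, Benjamini-Hochberg adjusted p under 0.05), where 23.0% of the 19101 tested genes rose and 20.2% fell. The cDC1 receptor *Xcr1* rose, and the cDC factor *Zbtb46*, the lectin *Cd209a* and the pDC lectin *Siglech* fell. At an unadjusted p under 0.05 there were 6 of 9, against 51.7% of genes. By overlap, 4 genes were higher in L skin with no WT library among them (*Xcr1*, *Flt3*, *Clec9a* and *Batf3*) and 2 were lower (*Zbtb46* and *Cd209a*), against 26.0% and 23.4% of genes. With 43.1% of genes past the test, these shares are no result about DC genes as a group. The median log2 fold change of the 9 was 0.42, and that of all tested genes 0.06.

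**Figure D2:**
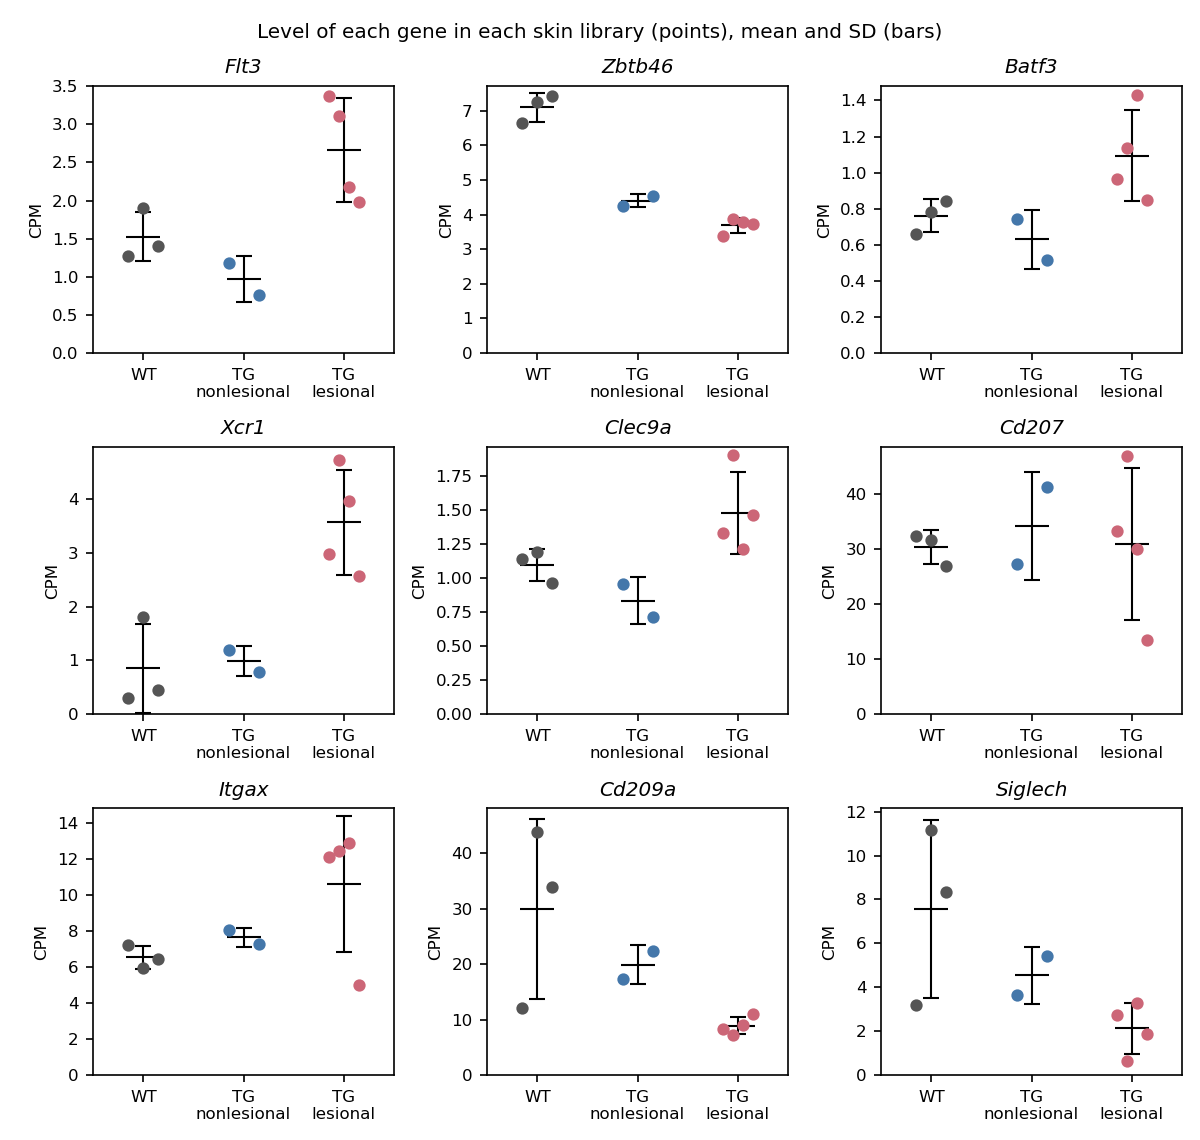
CPM of each of the 9 genes in each skin library, with points for libraries and bars for the mean and SD of 3 WT, 2 NL TG and 4 L TG libraries, on axes that start at 0. The L libraries lie above the others for *Xcr1* and *Flt3*, and below them for *Zbtb46* and *Cd209a*.

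*Xcr1*, the receptor through which cDC1 sense the chemokine *Xcl1*, was read at 0.296, 1.80 and 0.445 CPM in WT skin (13, 76 and 18 counts) and at 2.99, 4.74, 3.97 and 2.58 CPM in L skin (164, 192, 180 and 143 counts). The groups did not overlap, and WT replicate 9 came nearest to the L libraries. The log2 fold change was 2.07 (SE 0.596, 95% interval 0.71 to 3.42, adjusted p = 0.0218 by edgeR). The call was lost without WT replicate 8 (log2 fold change 1.66, adjusted p = 0.0561) or WT replicate 10 (1.76, 0.0766), and without WT replicate 9 the value was 3.24 (0.00238). With the leukocyte gene *Ptprc* as a covariate the log2 fold change was 2.06 and the adjusted p 0.111.

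The other cDC1 members did not pass. *Clec9a*, which recognises actin exposed by dead cells, was read at 1.14, 1.19 and 0.964 CPM in WT and 1.33, 1.90, 1.21 and 1.46 CPM in L skin (log2 fold change 0.42, SE 0.266, 95% interval -0.18 to 1.03, adjusted p = 0.228 by edgeR). *Batf3* was read at 0.661, 0.784 and 0.841 CPM in WT and 0.965, 1.13, 1.43 and 0.847 CPM in L skin (log2 fold change 0.52, SE 0.302, 95% interval -0.16 to 1.20, adjusted p = 0.195 by edgeR). Neither gene overlapped between groups, and for both the gap was narrow. Of 8 other cDC1 genes, 2 rose and 1 fell, where 23.0% of tested genes rose and 20.2% fell. *Itgae*, the CD103 chain that T cells of epithelia share, rose by 1.03, and *Cadm1*, an adhesion molecule that epithelial cells share, rose by 0.93 on the log2 scale (adjusted p of 0.0188 and 0.000523 by edgeR). *Naaa*, a lysosomal amidase, fell by 0.64 on the log2 scale (adjusted p = 0.00445 by edgeR).

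*Flt3*, the growth factor receptor of DC precursors, was read at 1.28, 1.90 and 1.41 CPM in WT and 3.37, 3.11, 2.18 and 1.98 CPM in L skin. The groups did not overlap, with L replicate 7 just above the highest WT library. The log2 fold change of 0.80 (SE 0.300, 95% interval 0.12 to 1.48) did not pass (adjusted p = 0.0586 by edgeR). It passed without L replicate 7 (adjusted p = 0.0423 by edgeR), with DESeq2 (0.0355) and with the X inactivation RNA *Xist*, near 0 in NL replicate 3 and L replicate 6, as a covariate (0.0466).

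*Zbtb46* was read at 6.64, 7.24 and 7.42 CPM in WT and at 3.37, 3.87, 3.79 and 3.73 CPM in L skin. Both groups were tight and lay apart. The log2 fold change was -0.94 (SE 0.144, 95% interval -1.27 to -0.62, adjusted p = 0.00120 by edgeR), and the call held with each library left out in turn and under each other setting tried. Endothelial cells also express *Zbtb46*. Where 20.2% of tested genes fell, 3 of 5 endothelial markers fell, with log2 fold changes of -1.21 for the VEGF receptor *Kdr*, -1.11 for the junctional cadherin *Cdh5* and -0.60 for the receptor kinase *Tie1* (adjusted p of 0.00773, 0.0281 and 0.0415 by edgeR). Their summed level was 195 to 274 CPM in WT and 92.1 to 169 CPM in L skin, and none was at 0 throughout a skin group. Their part in the fall of *Zbtb46* was not tested.

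*Cd207* was read at 32.4, 31.7 and 26.9 CPM in WT and at 33.2, 46.8, 30.0 and 13.4 CPM in L skin. The L libraries spread to both sides of WT, with L replicate 5 the highest and L replicate 7 the lowest of the 9 skin libraries. The log2 fold change was 0.03 (SE 0.358, adjusted p = 0.962 by edgeR), and the 95% interval of -0.79 to 0.85 does not show that the level was the same. Of 10 genes listed for Langerhans cells and their place in the epidermis, 5 rose and 1 fell, where 23.0% of tested genes rose and 20.2% fell. *Il34*, the keratinocyte ligand that sustains Langerhans cells through *Csf1r*, was read at 63.8, 45.6 and 47.0 CPM in WT and 22.5, 26.5, 23.0 and 13.2 CPM in L skin, without overlap (log2 fold change -1.29, SE 0.223, adjusted p = 0.00219 by edgeR). *Itgb8*, an integrin chain that helps release active TGF-β, was read at 15.5, 11.3 and 12.5 CPM in WT and 56.9, 109, 41.0 and 42.6 CPM in L skin (log2 fold change 2.25, SE 0.377, adjusted p = 0.00218 by edgeR). *Il34* was thus lower, and *Itgb8* higher, in all L libraries than in WT. The transcriptional regulator *Id2* rose by 1.22 and the adhesion molecule *Epcam* by 1.13 on the log2 scale (adjusted p of 0.000498 and 0.00202 by edgeR). Epithelial cells also express several of these genes, and of 5 keratinocyte markers 2 rose and 1 fell, with summed levels of 9572 to 11948 CPM in WT and 7948 to 23313 CPM in L skin. Their part in these differences was not tested.

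*Itgax* was read at 7.23, 5.96 and 6.45 CPM in WT and at 12.1, 12.5, 12.9 and 4.97 CPM in L skin. L replicates 4, 5 and 6 lay above WT, and L replicate 7 lay below it. The log2 fold change was 0.69 (SE 0.305, 95% interval 0.00 to 1.38, adjusted p = 0.0959 by edgeR), and without L replicate 7 it was 0.93 (adjusted p = 0.00149). L replicate 7 also had the lowest *Ptprc* of the L libraries, whose levels were 69.9, 47.8, 60.2 and 39.3 CPM.

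*Cd209a* was read at 12.2, 43.9 and 33.9 CPM in WT and at 8.25, 7.28, 9.01 and 10.9 CPM in L skin. All L libraries were lower than WT, and WT replicate 8 was near them. Its log2 fold change was -1.76 (SE 0.375, 95% interval -2.61 to -0.90, adjusted p = 0.00650 by edgeR), and the call held with each library left out in turn. Of 8 other cDC2 genes tested, 2 fell and 0 rose, where 20.2% of all tested genes fell and 23.0% rose. *Mgl2*, a galactose lectin of dermal cDC2 and macrophages, fell by 1.74, and *Irf4*, a transcription factor of cDC2, fell by 1.16 on the log2 scale (adjusted p of 0.0436 and 0.0244 by edgeR). For both genes the L and WT libraries overlapped. Of 10 macrophage markers, 2 fell (log2 fold change -2.22 for *Lyve1* and -1.03 for *Mertk*, the latter with overlap, adjusted p of 0.0138 and 0.0220 by edgeR). Their summed level was 489 to 1378 CPM in WT, lowest in replicate 8, and 233 to 802 CPM in L skin, and none was at 0 throughout a skin group. Their part in the falls of *Cd209a* and *Siglech* was not tested.

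*Siglech* was read at 3.19, 11.2 and 8.33 CPM in WT and at 2.73, 0.617, 3.30 and 1.86 CPM in L skin. WT replicate 8 lay within the range of the L libraries. Its log2 fold change was -1.83 (SE 0.565, 95% interval -3.12 to -0.54, adjusted p = 0.0299 by edgeR), and the call was lost without WT replicate 9 (log2 fold change -1.45, adjusted p = 0.108), WT replicate 10 (-1.75, 0.0774) or L replicate 7 (-1.76, 0.0693). Of 12 other pDC genes tested, 5 rose and 0 fell, where 23.0% of tested genes rose and 20.2% fell. The tissue kallikrein *Klk1* was read at 0.205, 0.119 and 0.0989 CPM in WT and 2.04, 1.43, 3.53 and 1.21 CPM in L skin (log2 fold change 3.83, adjusted p = 0.00186 by edgeR). *Spib*, an ETS factor of pDCs and B cells, was read at 0.137, 0.0950 and 0.173 CPM in WT and 1.22, 0.789, 2.03 and 0.324 CPM in L skin (log2 fold change 2.99, adjusted p = 0.0101 by edgeR). The homing receptor *Ccr9* rose by 1.45 on the log2 scale (adjusted p = 0.0382 by edgeR). Other cell types, among them glands and lymphocytes, express some of these genes, so the list does not speak for pDCs alone.

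**Figure D3:**
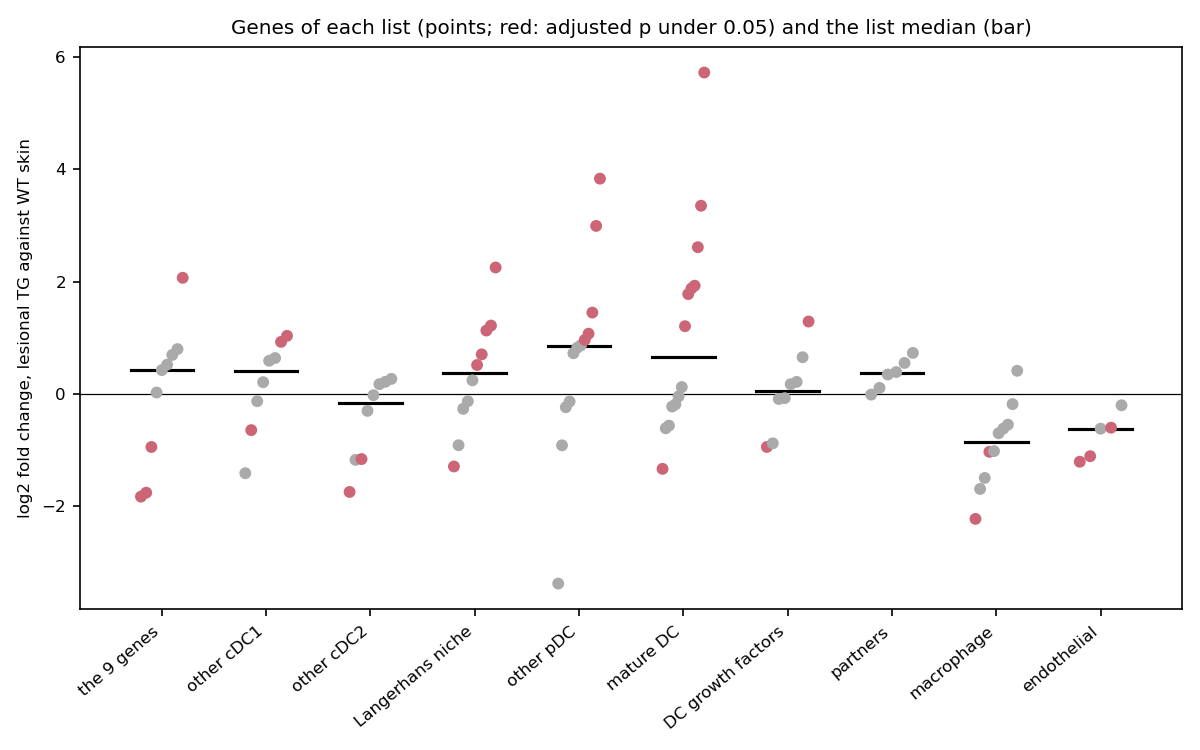
Log2 fold change between L TG and WT skin of each gene in the 9 genes and in other lists (points, red where the adjusted p is under 0.05), with bars at list medians. Of the 9 genes 1 rose and 3 fell. Of the 14 genes of the mature DC list 7 rose and 1 fell. Of all tested genes 23.0% rose and 20.2% fell.

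Of 14 genes of mature and migrating DCs, 7 rose and 1 fell, where 23.0% of tested genes rose and 20.2% fell. The median log2 fold change of the list was 0.66. *Ccr7*, the receptor that takes DCs to the node, was read at 0.525, 0.119 and 0.346 CPM in WT and 1.88, 2.17, 2.58 and 1.51 CPM in L skin (log2 fold change 2.61, adjusted p = 0.00266 by edgeR). *Il12b*, the p40 chain of IL-12 and IL-23, was read at 1, 1 and 0 counts in WT and 34, 36, 57 and 62 counts in L skin. The chemokine *Ccl17* was read at 0, 6 and 4 counts in WT and 15, 43, 71 and 26 counts in L skin. All L libraries were above WT for these 3 genes. T cells also express *Ccr7*, and 3 of 6 T cell markers rose in L against WT skin. Their part was not tested. *Socs2*, a suppressor of cytokine signalling, fell by 1.33 on the log2 scale (adjusted p = 0.00397 by edgeR). Of 8 growth factors and regulators of DC development, *Nfil3*, a factor upstream of cDC1 fate, rose by 1.29 and *Zeb2*, which favours cDC2 and pDCs, fell by 0.94 on the log2 scale (adjusted p of 0.00410 and 0.00622 by edgeR).

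Of 6 ligands and partners of the members, 0 passed edgeR's test in L against WT skin, where 43.1% of tested genes did. *Flt3l*, the ligand of *Flt3*, had a log2 fold change of 0.39, and *Xcl1*, the ligand of *Xcr1*, of 0.73 (adjusted p of 0.351 and 0.124 by edgeR). *Itgb2*, the integrin partner of CD11c, had 0.35, the adaptor *Tyrobp* -0.01, the kinase *Syk* 0.11 and the AP-1 factor *Junb* 0.55 (adjusted p of 0.321, 0.980, 0.799 and 0.375 by edgeR).

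Of the tested markers of other leukocytes, 3 of 6 neutrophil, 3 of 6 T cell and 1 of 5 monocyte markers rose, where 23.0% of tested genes did. Of the B cell and NK cell markers, 0 of 5 and 0 of 3 passed. None of these lists had a marker that fell, where 20.2% of tested genes did. The pan-leukocyte gene *Ptprc* was read at 31.1, 35.6 and 41.9 CPM in WT and 69.9, 47.8, 60.2 and 39.3 CPM in L skin, with overlap (log2 fold change 0.59, SE 0.200, adjusted p = 0.0417 by edgeR). Per 1000 *Ptprc* counts, *Zbtb46* was at 177 to 213 in WT and 48.2 to 94.8 in L skin. On the same scale *Cd209a* was at 391 to 1233 and 118 to 278, and *Siglech* at 103 to 314 and 12.9 to 54.9. These 3 were lower in L skin without overlap, as were 33.0% of tested genes, and no member was higher without overlap, as 7.76% were. *Xcr1*, at 9.53 to 50.7 in WT and 42.8 to 99.2 in L skin, overlapped on this scale. The L to WT ratio was 0.98 for *Batf3*, 0.94 for *Clec9a*, 1.05 for *Itgax*, 1.17 for *Flt3* and 0.67 for *Cd207*, all with overlap. Against NL skin, *Xcr1* was higher and the same 3 genes lower per *Ptprc* count (7.41% and 43.8% of genes), and in NL against WT skin *Zbtb46* alone was lower and none higher (8.08% and 12.3%).

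Lesional skin was next compared with nonlesional skin of *Ifnk* TG mice, using the same L libraries. *Flt3* was the single member that passed, where 25.0% of tested genes passed, 13.2% higher and 11.8% lower. It was read at 1.19 and 0.760 CPM in NL skin, below all L libraries, and its log2 fold change was 1.44 (SE 0.359, 95% interval 0.63 to 2.26, adjusted p = 0.0203 by edgeR). The call was lost without NL replicate 2 (log2 fold change 1.80, adjusted p = 0.0643) or NL replicate 3 (1.18, 0.160), which leaves 1 NL library that is assumed to vary like the others, and with *Ptprc* as a covariate (1.19, 0.147). By overlap 4 members were higher in L skin and 3 lower, where 24.7% of genes were higher and another 24.7% lower. An unadjusted p under 0.05 was found for 4 members, against 39.0% of genes. Besides *Flt3*, those higher were *Xcr1* (1.19 and 0.785 CPM in NL skin), *Clec9a* (0.956 and 0.711 CPM) and *Batf3* (0.745 and 0.515 CPM). Their log2 fold changes were 1.85, 0.82 and 0.79 (adjusted p of 0.0805, 0.0854 and 0.131 by edgeR). *Xcr1* passed with DESeq2 (adjusted p = 0.0165), with the L and NL groups fitted alone (0.0239) and without WT replicate 9 (0.0151), and *Clec9a* passed with DESeq2 (0.0496). Those lower were *Cd209a* (17.4 and 22.4 CPM), *Siglech* (3.63 and 5.44 CPM) and *Zbtb46* (4.26 and 4.54 CPM), with log2 fold changes of -1.17, -1.09 and -0.25 (adjusted p of 0.0709, 0.232 and 0.283 by edgeR). *Cd209a* passed with DESeq2 (adjusted p = 0.0259), with the groups alone (0.0163) and without WT replicate 8 (0.00789). *Cd207* (27.2 and 41.2 CPM) and *Itgax* (8.03 and 7.28 CPM) overlapped, and *Itgax* passed without L replicate 7 (log2 fold change 0.70, adjusted p = 0.0147 by edgeR).

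Among the other lists in this comparison, *Snx22* of cDC1 rose by 1.02, *Clec4a2* of cDC2 by 0.87, *Ccr7* of mature DCs by 2.36 and *Nfil3* by 1.98 on the log2 scale (adjusted p of 0.0328, 0.0383, 0.0150 and 0.00346 by edgeR). *Itgb8* rose by 1.94, *Id2* by 0.95, the pDC list's *Klk1* by 4.28 and *Bst2* by 1.46, and the actin bundler *Fscn1* of mature DCs by 2.04 on the log2 scale (adjusted p of 0.0148, 0.00627, 0.00636, 0.0443 and 0.00126 by edgeR). *Il12b* was read at 3 and 0 counts in NL skin and also passed (adjusted p = 0.00649 by edgeR). *Il34* was at 76.5 and 72.5 CPM in NL skin and fell by 1.80 on the log2 scale (adjusted p = 0.00205 by edgeR). Of the tested markers of other cells, 3 of 6 neutrophil, 2 of 6 T cell, 1 of 5 monocyte and 1 of 3 NK cell markers rose here, where 13.2% of tested genes did. Of the B cell, macrophage and endothelial markers, 0 of 5, 0 of 10 and 0 of 5 passed edgeR's test. Their part in these differences was not tested.

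**Figure D4:**
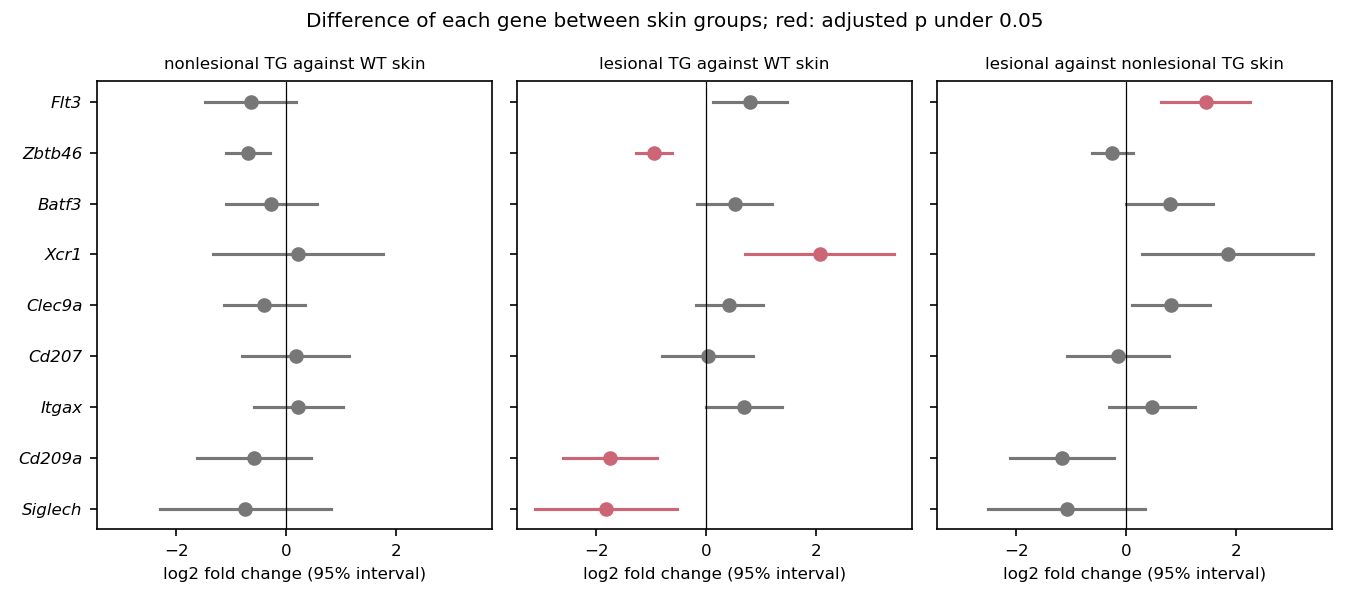
Log2 fold change of each gene with its 95% interval in 3 skin comparisons, which share libraries, with red for an adjusted p under 0.05. *Zbtb46* lies below 0 in NL against WT skin (-0.69) and in L against WT skin (-0.94).

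Nonlesional TG skin was compared with WT skin, and 0 of the 9 passed edgeR's test, as did 0% of tested genes. At an unadjusted p under 0.05 there was 1 of 9, against 7.67% of genes, and DESeq2 also called 1. Both were *Zbtb46*, whose NL libraries lay between WT and L skin (log2 fold change -0.69, SE 0.176, 95% interval -1.09 to -0.29, adjusted p = 0.495 by edgeR and 0.0128 by DESeq2). *Zbtb46*, *Flt3* and *Clec9a* were lower without overlap and *Itgax* was higher, where 16.3% and 18.6% of genes were. Their log2 fold changes were -0.65 for *Flt3*, -0.39 for *Clec9a* and 0.23 for *Itgax* (adjusted p of 0.710, 0.786 and 0.887 by edgeR).

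In the lymph nodes 0 of the 9 passed in any of the 7 comparisons, by edgeR or by DESeq2. *Siglech* was read at 42.4 to 101 CPM over the 12 libraries, *Flt3* at 10.4 to 18.2, *Itgax* at 7.21 to 16.2, *Cd209a* at 5.49 to 11.1 and *Xcr1* at 2.73 to 7.52 CPM. *Cd207*, which migrating Langerhans cells and dermal cDC1 bring to the node, was at 0.890 to 2.38 CPM (29 to 84 counts), and *Batf3* was at 0.278 to 1.84 CPM (8 to 65 counts). These low counts limit what the 2 genes can show.

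**Figure D5:**
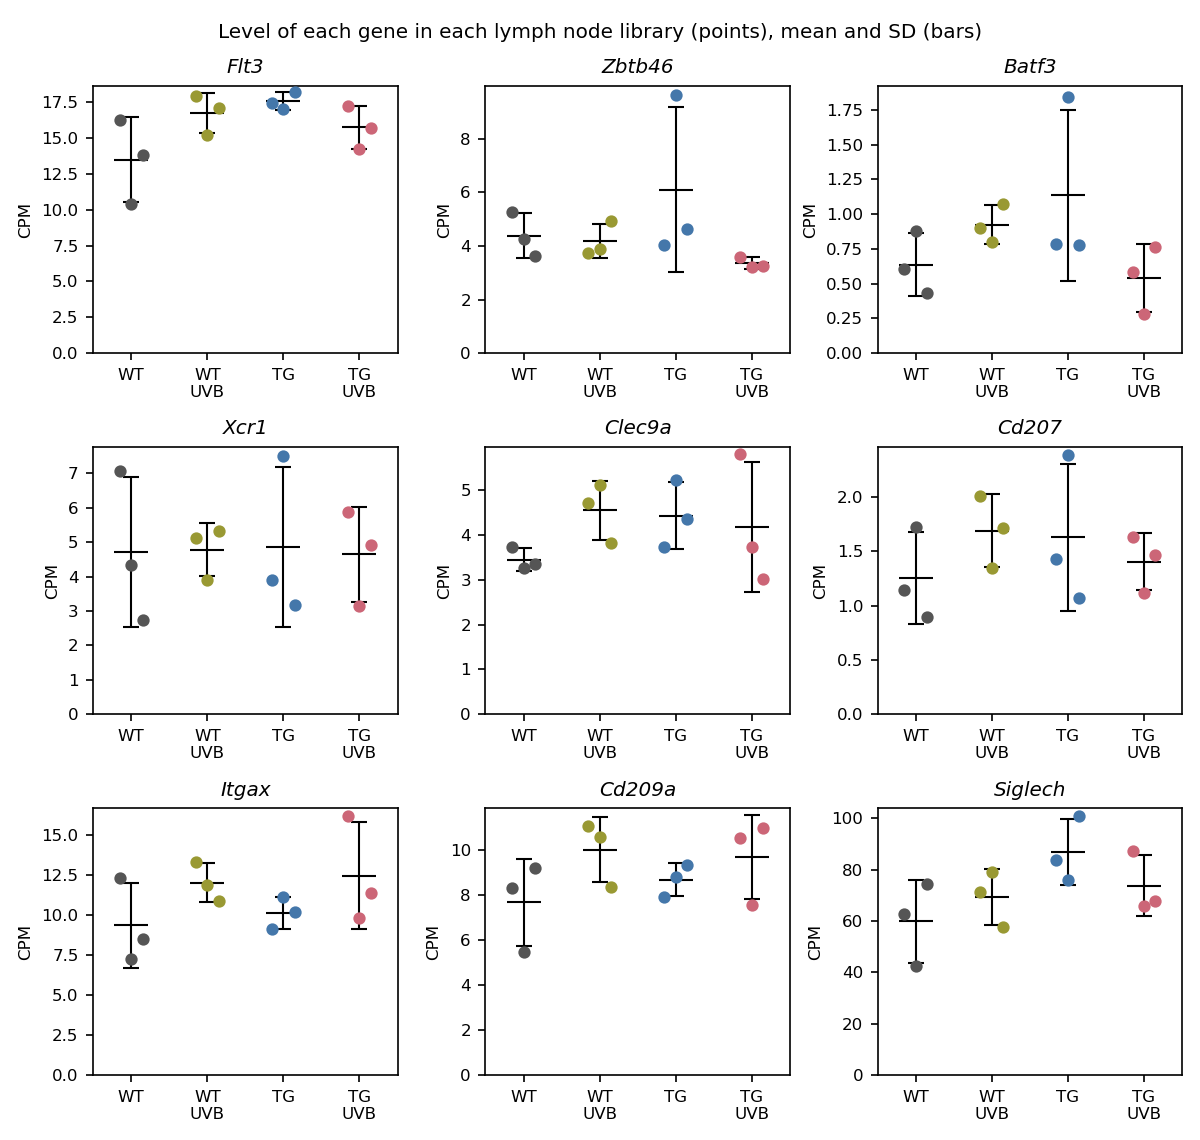
CPM of each of the 9 genes in each node library, with points for libraries and bars for the mean and SD of 3 libraries per group, on axes that start at 0. Untreated TG replicate 5 stands above the rest for *Zbtb46* and *Batf3*.

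In WT nodes UVB changed 4.98% of the 16173 tested genes (2.92% higher and 2.06% lower) and 0 of the 9, also at an unadjusted p under 0.05, where 26.3% of genes were. *Flt3* had the lowest adjusted p, with 16.3, 10.4 and 13.8 CPM without and 17.9, 15.2 and 17.1 CPM after UVB, groups that overlapped (log2 fold change 0.31, SE 0.148, 95% interval -0.01 to 0.63, adjusted p = 0.197 by edgeR, and 0.16 on the log2 scale without WT replicate 2). *Clec9a*, with 3.74, 3.26 and 3.35 CPM without and 4.72, 5.13 and 3.83 CPM after UVB, was higher without overlap, as 19.8% of genes were, while no member was lower, as 17.3% were. Its log2 fold change was 0.40 (adjusted p = 0.312 by edgeR). In the other lists *Ccr7* fell from 448 to 499 CPM to 329.8 to 369 CPM, by 0.43 on the log2 scale (adjusted p = 0.0261 by edgeR). *Itgae* rose by 0.87, the aryl hydrocarbon receptor *Ahr* rose by 0.77 and *Zeb2* fell by 0.60 on the log2 scale (adjusted p of 0.0304, 0.0343 and 0.0234 by edgeR). None of these genes had an adjusted p under 0.01. In the fit with a library left out that called the fewest genes, no gene passed in this comparison. T cells also express *Ccr7* and *Itgae*, and 2 of 6 T cell markers fell, with summed levels of 2246 to 2360.0 CPM without and 1793 to 2013 CPM after UVB. Their part was not tested.

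In TG nodes UVB changed 0% of tested genes and 0 of the 9, with 2 of the 9 at an unadjusted p under 0.05, where 9.32% of genes were. *Zbtb46* was read at 4.03, 9.65 and 4.64 CPM without and 3.61, 3.20 and 3.24 CPM after UVB (log2 fold change -0.86, SE 0.292, adjusted p = 0.396 by edgeR). *Batf3* was read at 0.784, 1.84 and 0.778 CPM without and 0.582, 0.278 and 0.765 CPM after UVB (log2 fold change -1.05, SE 0.455, adjusted p = 0.501 by edgeR). Both were lower without overlap, as 7.11% of genes were, and no member was higher, as 6.23% were. Untreated TG replicate 5 was the highest of the 12 node libraries for *Zbtb46*, *Batf3*, *Xcr1*, *Cd207* and the summed macrophage markers (62.9 CPM, against 21.7 to 42.4 in the other 11), and the lowest for B cell markers (1049 CPM, against 1493 to 2020.0). Without it the log2 fold changes were -0.38 for *Zbtb46* and -0.52 for *Batf3* (adjusted p of 0.839 and 0.882 by edgeR).

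Untreated TG nodes were compared with untreated WT nodes, and 0 of the 9 passed edgeR's test, as did 0% of tested genes. All 9 log2 fold changes were above 0, but 6 were without TG replicate 5 (with *Xcr1* at -0.42, *Zbtb46* at -0.02 and *Cd207* at -0.01), 6 without WT replicate 2 and 8 without WT replicate 3. With all libraries 2 of the 9 had an unadjusted p under 0.05, where 3.39% of genes did. *Siglech* was read at 62.5, 42.4 and 74.5 CPM in WT and 83.7, 75.9 and 101 CPM in TG nodes (log2 fold change 0.54, SE 0.197 by edgeR). *Flt3* was read at 16.3, 10.4 and 13.8 CPM in WT and 17.5, 17.1 and 18.2 CPM in TG nodes (log2 fold change 0.38, SE 0.148 by edgeR). Without WT replicate 2, the lowest library for both genes, these log2 fold changes were 0.34 and 0.23. The adjusted p by edgeR was 1 for each, and both were higher in TG nodes without overlap, as 5.52% of genes were (4.93% were lower). After UVB, 0 of the 9 passed edgeR's test between genotypes (0% of genes) and 0 had an unadjusted p under 0.05 (6.99%). *Batf3* (-0.76, 95% interval -1.75 to 0.23) and *Zbtb46* (-0.32, -0.96 to 0.31) were lower in TG nodes without overlap, as 4.32% of genes were (5.39% were higher), and the other 7 had log2 fold changes between -0.27 and 0.09.

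The difference between genotypes in the response to UVB was tested as an interaction, which passed for 0 of the 9 and 0% of genes by edgeR, with 2 of the 9 at an unadjusted p under 0.05, where 5.45% of genes were. Those were *Batf3* (-1.59, SE 0.644) and *Flt3* (-0.47, SE 0.209), each with an adjusted p of 0.848 by edgeR. Without untreated TG replicate 5 the value for *Batf3* was -1.03 (adjusted p = 0.948 by edgeR), and without untreated WT replicate 2 that for *Flt3* was -0.31 (0.871). Over both genotypes UVB changed 8.61% of genes (4.81% higher and 3.80% lower) and 0 of the 9, with 2 at an unadjusted p under 0.05, where 28.2% of genes were. Those were *Zbtb46*, with a log2 fold change of -0.46, and *Itgax*, with 0.33 (adjusted p of 0.160 and 0.166 by edgeR). Without untreated TG replicate 5 the value for *Zbtb46* was -0.23 (adjusted p = 0.365 by edgeR). Of the other lists, *Itgae* rose by 0.79, *Ahr* by 0.53 and the maturation marker *Cd83* by 0.59, and *Ccl22* fell by 0.63, *Fscn1* fell by 0.48 and *Ccr7* fell by 0.31 on the log2 scale (adjusted p of 0.00971, 0.0248, 0.0465, 0.0144, 0.0444 and 0.0144 by edgeR). Among growth factors and regulators of DC development, *Zeb2* fell by 0.52 and *Csf2rb* by 0.33 on the log2 scale (adjusted p of 0.00571 and 0.0469 by edgeR). Genotype over both treatments changed 0.00618% of genes and 0 of the 9, with *Siglech* alone at an unadjusted p under 0.05, where 4.66% of genes were (log2 fold change 0.31, SE 0.139, adjusted p = 1.000 by edgeR).

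Up to 3 genes whose pattern over libraries was most like each member are given, found by the root mean square difference of standardized log2 CPM, printed for the nearest, among 15005 genes in 9 skin libraries and 12792 genes in 12 node libraries. They are a description with no test. In skin, *Xcr1* was nearest to *Lztfl1* (0.211), *Acot8* and *Gsdmc*, and the first of these lies 135 kb from it on the same chromosome. *Batf3* was nearest to *Sash3* (0.307), *Cd4* and *Slamf7*, and *Flt3* to *Pigx* (0.237), *Epb41l4aos* and *Elob*. *Zbtb46* was nearest to *Fam161a* (0.175), *Ppp3cc* and *Airn*, *Clec9a* to *B3galt6* (0.230), *Phactr1* and *Glrx5*, and *Cd207* to *Kynu* (0.276), *Fam234a* and *Gpr141*. *Itgax* was nearest to *Prr13* (0.260), *H2-Q5* and *H2-T22*, where reads of the H2 genes may be shared with near-identical copies, *Cd209a* to *Zhx2* (0.213), *Vash1* and *Dnm1*, and *Siglech* to *Ripor2* (0.139), *Slc9a9* and *Gm2026*. In nodes, *Batf3* was nearest to *Socs2* (0.286), *Itpripl2* and *Sowahc*, *Zbtb46* to *Slco5a1* (0.320), *Adam23* and *Synpo2*, and *Xcr1* to *Fgl2* (0.375), *Stx3* and *Polr1e*. *Clec9a* was nearest to *Rbak* (0.307), *Kifc5b* and *Slk*, *Flt3* to *Sema4c* (0.375), *Cactin* and *Esrra*, and *Siglech* to *Pdzd4* (0.348), *Sort1* and *Klra17*. *Itgax* was nearest to *Phactr2* (0.374) and *Fbxo48*, *Cd209a* to *Epha2* (0.404), *Lifr* and *Pcyox1l*, and *Cd207* to *Gngt2* (0.536), *Mreg* and *Dhrs11*.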

How the data were processed

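Poly-A RNA of 9 skin and 12 inguinal lymph node samples of mice was sequenced as paired-end reads. Per the labels and the paper's methods, the authors trimmed reads with cutadapt 4.8, aligned them with STAR 2.7.8a to GRCm38 and deposited expected counts per gene from RSEM 1.3.3, not normalized and given as whole numbers, in 1 table per tissue. The annotation release is not given in the sources used here, and 4 entries of each table without a mouse gene were left out. Groups were taken from the sample labels. Each tissue was fitted apart, with all of its groups in 1 model, by edgeR 4.0.16 in R 4.3.3 (TMM scaling, filterByExpr with a minimum count of 10, robust quasi-likelihood test, two-sided, Benjamini-Hochberg adjustment over all tested genes). CPM are counts divided by the TMM-scaled library size, and levels per kb use the union of exons in GENCODE M21. The fit was also tested on simulated data. The 9 genes and the other lists were chosen with earlier results of these data known. Named genes are all members, up to 3 genes of each other list with the largest change in each direction among those past the threshold, all ligands and partners, and the 3 genes most like each member among genes with a mean of at least 1 CPM, of which a gene is not reported here. Other marker lists are named where they moved with a member. No 2 libraries of the same group agreed within sampling noise. Intervals are 95% intervals of the fit. Alternatives were DESeq2 1.42.0, RLE scaling, other filters on low counts, the compared groups alone, no robust estimation, no keratin, muscle and fat genes (skin), an adjusted p under 0.01 and each library left out in turn. Xist or Ptprc as a covariate was added after seeing the data.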

Additional observations from a re-analysis of the deposited data

Results flagged for a closer look

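In lesional skin, *Itgax* of L replicate 7, at 4.97 CPM, stood apart from the other 3 L libraries. The gap was 0.902 of the range of the group, above the 95% critical value of Dixon's test for 4 samples. It was the single flag among the 9 genes in this group, and a test of this kind flags about 1 in 20 groups by chance.

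*Flt3* had fold changes of opposite sign in skin and nodes of untreated TG mice. Its log2 fold change was -0.65 in NL TG against WT skin and 0.38 in TG against WT nodes without UVB, and in each tissue the groups did not overlap. The difference between the tissues was not tested, since the tables were fitted apart, and neither value passed edgeR's test. The skin mice were 12 months old, and the labels give no age for the node mice. *Xist* was at 78.9 to 179 CPM in WT skin, 179 and 0.319 CPM in NL skin and 0.0811 to 1.46 CPM in the nodes. The *Xist* level thus set WT skin apart from the nodes and differed within NL skin. Sex may differ in the same way, and it cannot be told apart from tissue here. NL replicate 3, with the lower *Flt3* level and the low *Xist* level, was also the NL library with 0 *Ifnk* counts.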

How the results depend on the processing

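Of 1802 fold changes of members under alternatives, 1683 kept their direction and side of the threshold, 12 lost a call, 13 gained one, and 94 changed sign without being called in either fit. None reversed while called. In lesional against WT skin 4 members were called, 2 at an adjusted p under 0.01, and 2 to 5 with a library left out, lowest without WT replicate 10 and highest without L replicate 7. *Flt3* was also called with DESeq2 or with Xist as a covariate, and *Xcr1* lost its call with Ptprc as a covariate. In lesional against nonlesional skin 1 member was called, 4 with DESeq2, 3 with the groups compared alone, 0 with Ptprc as a covariate, 0 at an adjusted p under 0.01, and 0 (without NL replicate 2 or 3) to 2 with a library left out. The main fit called 43.1% of all tested genes in lesional against WT skin and 25.0% in lesional against nonlesional skin. For either comparison the share of all genes with DESeq2 is not given here, so these counts of members are no result about DC genes. In nonlesional against WT skin 0 members were called, and 1 with DESeq2. In nodes 0 were called under each setting. The cause was not tested.

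Counts over all genes moved more. UVB in WT nodes gave 805 genes, 2002 with DESeq2, 2431 with the groups alone, 407 with Xist and 2820 with Ptprc as a covariate, 1 at an adjusted p under 0.01, and 0 to 2644 with a library left out. UVB over both genotypes gave 1393, 2440 with DESeq2, 80 at an adjusted p under 0.01 and 373 to 3790 with a library left out. UVB in TG nodes gave 0, 137 with DESeq2 and 0 to 236 with a library left out. Lesional against WT skin gave 8237, and 4823 at an adjusted p under 0.01. Lesional against nonlesional skin gave 4782, 1872 at an adjusted p under 0.01, 3156 with the groups alone, 2997 with Ptprc and 1182 to 5187 with a library left out. Nonlesional against WT skin gave 0, 80 with DESeq2 and 1 with the groups alone. Between TG and WT nodes DESeq2 gave 2 genes without UVB, 19 after it, 8 for the interaction and 13 for genotype over both treatments, against 0, 0, 0 and 1. No paired analysis was possible because the mouse of origin is not in the sample labels. Low counts limit *Batf3* and *Cd207* in nodes.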
